A study of Mus musculus with 8 samples.

Results

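The genes described here are 10 core components of the Notch pathway in the embryonic mouse kidney: the receptors Notch1, Notch2 and Notch3, the ligands Jag1 and Dll1, the receptor-modifying enzyme Lfng, and the transcriptional targets Hes1, Hes5, Hey1 and Heyl. They were taken by name from a table of 21291 gene rows, and all 10 were found there. Each library holds polyadenylated RNA from both kidneys of 1 embryo at E14.5. The 4 mutant embryos were Etv4-/- and the 4 control embryos Etv4+/-. Every embryo of both groups also carried Six2-GFPcre tg/+ and Etv5fl/fl. Etv4 and Etv5 are ETS-family transcription factors, and the series asks what their loss from nephron progenitors does to the kidney. Six2-GFPcre drives Cre in nephron progenitors, whereas the Etv4 null allele is not limited to those cells. Because Cre and the floxed Etv5 alleles are present in both, the groups as labelled differ at Etv4 alone. The labels call the controls littermates without saying which embryos shared a litter. Whole kidneys were sequenced, so for every value below fewer cells of a type and less RNA per cell cannot be told apart.

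Notch receptors are single-pass proteins that are activated by Delta-like and Jagged ligands on neighbouring cells. Ligand binding exposes the receptor to cleavage by ADAM10 and then by gamma-secretase, and the released intracellular part enters the nucleus, binds the DNA-binding protein RBPJ and switches on genes of the Hes and Hey families. Those genes encode basic helix-loop-helix repressors. In the developing kidney Notch signalling is known for moving nephron progenitors toward differentiation and for patterning the early nephron, with Notch2 as the main receptor there. Jag1, Dll1 and Lfng are expressed in the forming nephron, whereas Notch4, Dll4, Hey1 and Heyl are also genes of blood vessels and Notch3 of the mural cells around them.

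Promoter sequences show which members hold the letters bound by RBPJ close to their start site. RefSeq windows on GRCm38.p6, running from 250 bases before to 50 bases after the annotated start, were matched for 7 members in 8 windows; Hes1, Hey1 and Heyl were not among them. The RBPJ core TGGGAA or its reverse complement TTCCCA occurred in 2 of the 8 windows, those of Hes5 and Lfng, which each held 2 matches, against 25.6% of all 32851 windows of the same length. Below, capitals mark these matches, and the Jag1 window is shown as a window without one.
Hes5, chr4:154960673-154960972, plus strand: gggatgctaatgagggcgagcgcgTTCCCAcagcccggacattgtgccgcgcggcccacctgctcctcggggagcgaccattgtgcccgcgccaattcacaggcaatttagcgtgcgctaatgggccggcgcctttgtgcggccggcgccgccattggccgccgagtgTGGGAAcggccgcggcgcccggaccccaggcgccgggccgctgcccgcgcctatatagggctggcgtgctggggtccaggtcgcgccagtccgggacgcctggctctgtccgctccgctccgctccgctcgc
Lfng, chr5:140607091-140607390, plus strand: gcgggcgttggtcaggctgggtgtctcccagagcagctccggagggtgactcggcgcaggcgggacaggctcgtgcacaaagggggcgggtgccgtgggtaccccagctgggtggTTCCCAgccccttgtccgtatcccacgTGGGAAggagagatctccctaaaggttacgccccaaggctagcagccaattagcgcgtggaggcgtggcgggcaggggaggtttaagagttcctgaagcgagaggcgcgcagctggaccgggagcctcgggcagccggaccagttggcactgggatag
Jag1, chr2:137116471-137116770, minus strand: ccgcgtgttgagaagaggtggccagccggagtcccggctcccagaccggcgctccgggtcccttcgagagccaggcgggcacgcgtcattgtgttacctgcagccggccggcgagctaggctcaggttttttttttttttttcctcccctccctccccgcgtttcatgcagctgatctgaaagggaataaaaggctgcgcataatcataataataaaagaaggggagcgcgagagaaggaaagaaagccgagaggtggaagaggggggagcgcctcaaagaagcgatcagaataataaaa
In the Hes5 window the matches began 226 and 82 bases before the start, on opposite strands. In the Lfng window they began 135 and 108 bases before it, also on opposite strands. The ETS core CCGGAA or its reverse complement TTCCGG was in 0 of the 8 windows, against 14.9% of all windows; this says only that these letters are not in these windows.

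Total estimated counts ran from 35308934 to 38824018 in mutant libraries and from 15515139 to 39548327 in control libraries. Values are normalized counts, that is, estimated counts divided by a size factor for each library. Control 4 was the shallowest library and held 18.4% of its counts in 1 gene, Lars2, against at most 0.476% in any other. Etv4, the targeted gene, had 164 to 294 normalized counts in mutants and 2311 to 2816 in controls. Etv5 had 1487 to 2657 in mutants and 3006 to 4085 in controls (limma adjusted p = 0.106). The kidney genes Six2, Wnt4 and Calb1, of progenitors, early nephron and ureteric bud, were present at 608 normalized counts or more in every library. The 4 Y-linked genes Ddx3y, Uty, Eif2s3y and Kdm5d did not exceed 12.2 normalized counts in any mutant library and were at 389 or more in every control library, so genotype and embryo sex cannot be told apart for any difference below. The number in the library name was shared by mutants 1 and 2 (m755) and controls 1 and 2 (c755) and by mutant 4 (m816) and control 4 (c816), while mutant 3 (m759) and control 3 (c775) each had their own. What that number stands for is not given in the labels, and the p-values measure the spread between these 8 embryos.

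The data show 3 patterns among the 10 genes. Hey1, Heyl, Jag1 and Notch1 were higher in mutant kidneys by 1.22 to 1.48 times on the ratio of group means, Hes1 was lower, at 0.748 times the control mean, and Dll1, Lfng and Hes5 had the widest spread between embryos of 1 genotype. None of the 10 passed limma's test at an adjusted p below 0.05 over 14974 genes, where 0.301% of all genes did (0.0801% higher and 0.220% lower). With limma voom 0 members passed, against 0.461% of all genes. At an unadjusted limma voom p below 0.05 there were 6 members, against 13.3% of all genes. At an unadjusted limma p below 0.05 there were 4 members higher and 1 lower, 5 of 10, against 12.0% of all genes (6.33% higher and 5.72% lower). Mutant and control libraries did not overlap for 3 members, Hes1, Hey1 and Heyl, against 8.60% of all genes (4.17% with mutants higher and 4.43% with mutants lower). All 3 are targets. Fold changes were positive for 8 of the 10 members, against 51.7% of all genes. The median log2 fold change was 0.45 over the 6 receptors, ligands and Lfng and 0.35 over the 4 targets, against 0.0087 over all genes. The members were chosen with earlier results of these data known, so these shares and medians are a description. Of 60 other pathway genes tested, 30 had positive and 30 negative fold changes, with a median of 0.0021. The 4 targets lay on both sides of 0, and their median was 0.104 without control 1.

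**Figure D1:**
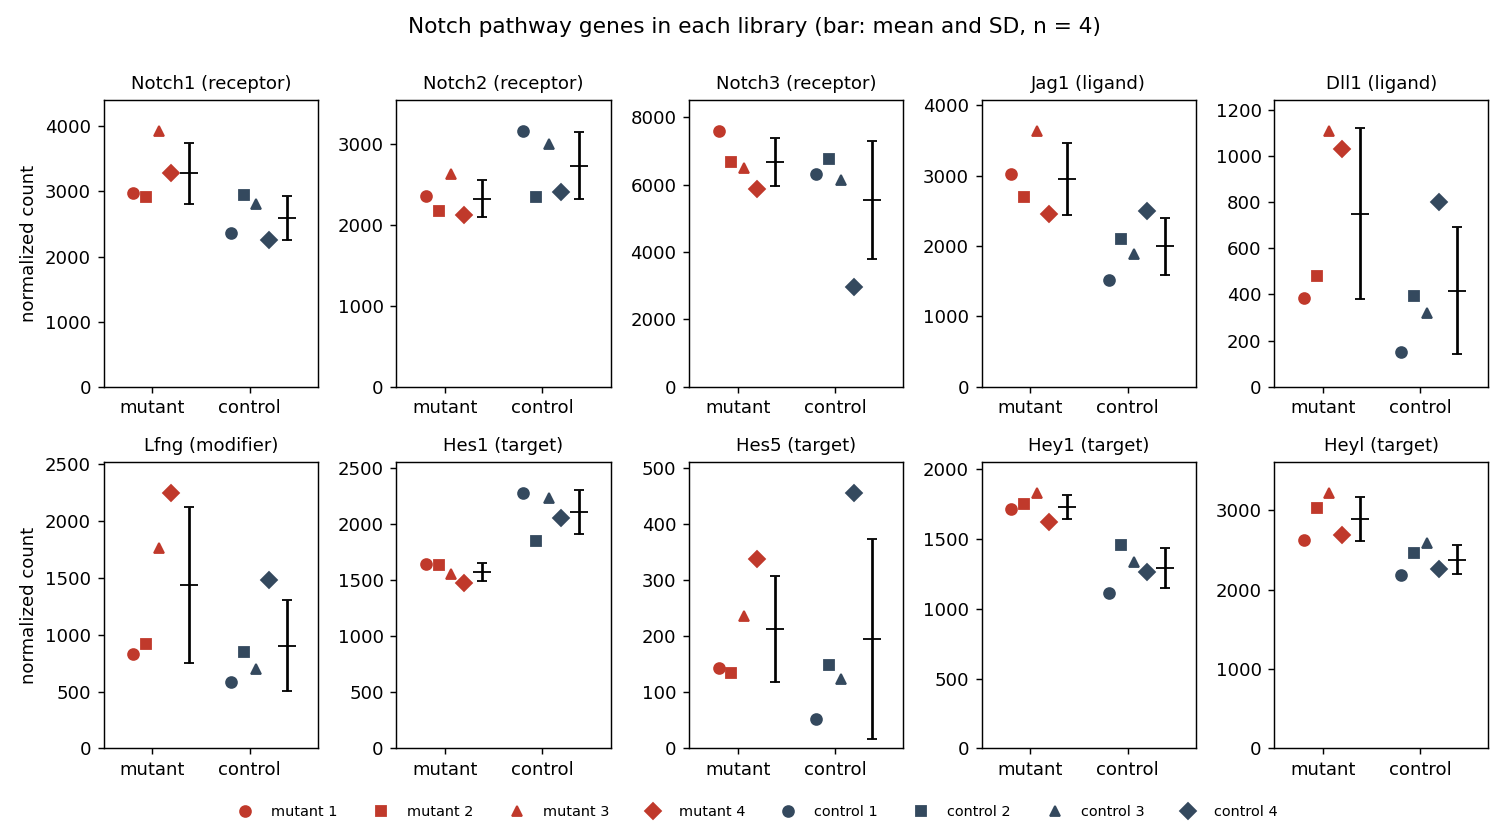
Normalized count of each of the 10 genes (vertical axes, from 0) in the 4 mutant libraries, left, and the 4 control libraries, right; each marker shape is a replicate number and the black bar is the mean with its SD. Hes1 separates the groups with mutants low, Hey1 and Heyl separate them with mutants high, and Dll1, Lfng and Hes5 reach their highest values in mutant 3, mutant 4 and control 4.

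Among the receptors, Notch1 (ENSMUSG00000026923, chromosome 2, 26457903 to 26516663, minus strand, GRCm38) had 2969.7, 2918, 3931 and 3289 normalized counts in mutants 1 to 4, against 2359.9, 2943, 2806 and 2258 in controls 1 to 4. All 4 mutants lay above the control mean, and mutants 1 and 2 were close to control 2, so the groups overlapped. The log2 fold change of Notch1 was 0.34 (adjusted p = 0.307 by limma, SE 0.12, 95% interval 0.063 to 0.61). Notch1 differed by 0.16 on the log2 scale within the m755 and c755 libraries and by 0.54 between mutant 4 and control 4.

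Notch2 (ENSMUSG00000027878, chromosome 3, 98013527 to 98150361, plus strand) had 2356, 2175, 2629.9 and 2123 normalized counts in mutants 1 to 4, against 3158, 2343, 3002 and 2405 in controls 1 to 4. It was the receptor with lower mutant values, but controls 2 and 4 lay within the range of the mutants. Its log2 fold change of −0.23 (adjusted p = 0.496 by limma, SE 0.12) had a 95% interval of −0.49 to 0.041. It was −0.26 within the m755 and c755 libraries, −0.18 between mutant 4 and control 4, and 0.24 with no depth scaling, where the median of all genes was 0.48.

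Notch3 (ENSMUSG00000038146, chromosome 17, 32120820 to 32166852, minus strand) had 7591, 6676, 6499.9 and 5872 normalized counts in mutants 1 to 4, against 6299, 6762, 6142 and 2947 in controls 1 to 4. Control 4 stood far below the other 7 libraries, which overlapped across genotypes. For Notch3 the log2 fold change was 0.33 (adjusted p = 0.618 by limma, SE 0.24), and it was 0.052 without control 4. Within the m755 and c755 libraries it was 0.13, and between mutant 4 and control 4 it was 0.99.

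Of the ligands, Jag1 (ENSMUSG00000027276, chromosome 2, 137081456 to 137116644, minus strand) had 3019, 2701, 3635 and 2452 normalized counts in mutants 1 to 4, against 1517, 2092, 1880.5 and 2494 in controls 1 to 4. Of the mutants, 3 lay above every control, and mutant 4 lay just below control 4, the pair named m816 and c816. The log2 fold change of Jag1 was 0.57 (adjusted p = 0.19 by limma, SE 0.16, 95% interval 0.21 to 0.94), the ratio of means being 1.48. Within the m755 and c755 libraries the difference was 0.68 on the log2 scale, and between mutant 4 and control 4 it was −0.024. Without m816 and c816 the log2 fold change of Jag1 was 0.77 and passed (limma adjusted p = 0.0357), as did 1.27% of all genes. Jag1 also passed with library weights (limma adjusted p = 0.012), as did 5.00% of all genes. Over all 23 alternative fits the adjusted p of Jag1 ran from 0.012 to 0.626. The authors' deposited table holds 644 genes, all with an adjusted p of at most 0.0498 in the authors' own test, which is not the limma test used here. Jag1 is the single member listed, with a log2 fold change of 0.69 (the authors' adjusted p = 0.00037, SE 0.15).

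Dll1 (ENSMUSG00000014773, chromosome 17, 15367354 to 15376872, minus strand) had 383, 481, 1110.3 and 1032 normalized counts in mutants 1 to 4, against 150.1, 395, 318 and 799.8 in controls 1 to 4. Mutants 3 and 4 and control 4 formed the upper end, and control 1 was lowest, 7.4 times below mutant 3. For Dll1 the log2 fold change was 0.95, the largest of the 10 genes, with an SE of 0.50 and a 95% interval of −0.17 to 2.07 (limma adjusted p = 0.495). Dll1 stood at 0.81 within the m755 and c755 libraries and at 0.37 between mutant 4 and control 4.

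Lfng encodes lunatic fringe, a sugar transferase that alters how Notch receptors respond to their ligands. Lfng (ENSMUSG00000029570, chromosome 5, 140607320 to 140615545, plus strand) had 830.3, 914, 1764 and 2249 normalized counts in mutants 1 to 4, against 585, 847, 701 and 1481 in controls 1 to 4. As for Dll1, mutant 3, mutant 4 and control 4 were highest and the groups overlapped. For Lfng the log2 fold change was 0.64 (adjusted p = 0.527 by limma, SE 0.37, 95% interval −0.18 to 1.45). It was 0.31 within the m755 and c755 libraries and 0.60 between mutant 4 and control 4.

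The 4 targets did not share a direction. Hes1 (ENSMUSG00000022528, chromosome 16, 30064384 to 30067796, plus strand), a repressor that keeps many progenitor cells from differentiating, had 1641, 1631, 1553 and 1471 normalized counts in mutants 1 to 4, against 2279, 1849.7, 2234 and 2051 in controls 1 to 4. Every mutant lay below every control. The means were 1574 ± 78.9 in mutants and 2103 ± 196 in controls (SD, n = 4 each). The log2 fold change of Hes1 was −0.41 (adjusted p = 0.101 by limma, SE 0.088, 95% interval −0.61 to −0.22). It was −0.33 within the m755 and c755 libraries and −0.48 between mutant 4 and control 4. On deposited values with no depth scaling it was 0.055, where the median of all genes was 0.48, so it remained below that median. With library weights Hes1 passed (limma adjusted p = 0.0113), as did 5.00% of all genes.

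Hey1 (ENSMUSG00000040289, chromosome 3, 8663359 to 8667256, minus strand) had 1711, 1751, 1829.6 and 1619 normalized counts in mutants 1 to 4, against 1115, 1459, 1331 and 1265 in controls 1 to 4. Every mutant lay above every control, with means of 1728 ± 87.5 in mutants and 1292 ± 143 in controls (SD, n = 4 each). The log2 fold change of Hey1 was 0.42 (adjusted p = 0.11 by limma, SE 0.096, 95% interval 0.21 to 0.64). It was 0.44 within the m755 and c755 libraries and 0.36 between mutant 4 and control 4. Hey1 passed with library weights (limma adjusted p = 0.0167), as did 5.00% of all genes.

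Heyl (ENSMUSG00000032744, chromosome 4, 123233556 to 123249875, plus strand) had 2631, 3029, 3222 and 2688 normalized counts in mutants 1 to 4, against 2185, 2466, 2588 and 2267 in controls 1 to 4. The groups were separate, by a narrow gap between mutant 1 and control 3. In Heyl the log2 fold change was 0.28 (adjusted p = 0.258 by limma, SE 0.093, 95% interval 0.074 to 0.49), with 0.28 within the m755 and c755 libraries and 0.25 between mutant 4 and control 4.

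Hes5 (ENSMUSG00000048001, chromosome 4, 154960923 to 154962371, plus strand), whose promoter window holds the RBPJ core at both positions printed above, was the lowest in counts. It had 144, 135, 237 and 338 normalized counts in mutants 1 to 4, against 52.5, 148, 124 and 457 in controls 1 to 4, from 57 to 385 estimated counts. Control 4 and control 1 were the highest and lowest of all 8 libraries, so the control range enclosed every mutant. In Hes5 the log2 fold change was 0.45 (adjusted p = 0.804 by limma, SE 0.57, 95% interval −0.83 to 1.73), and it was −0.034 without control 1 and 1.00 without control 4. It was 0.65 within the m755 and c755 libraries and −0.43 between mutant 4 and control 4.

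**Figure D2:**
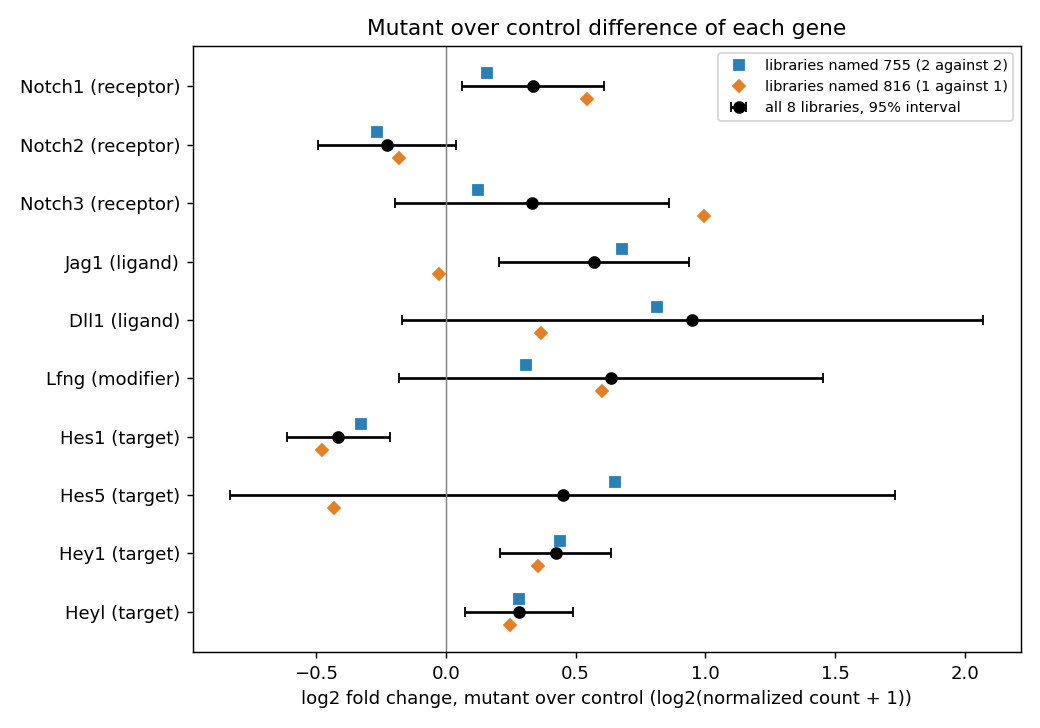
Log2 fold change, mutant over control, of each gene on the log2(normalized count + 1) scale (horizontal axis); black points with bars are the estimates and 95% intervals from all 8 libraries, blue squares the differences within the m755 and c755 libraries (2 against 2) and orange diamonds the difference between mutant 4 and control 4 (1 against 1). The intervals of Notch1, Jag1, Hes1, Hey1 and Heyl leave out 0, and the orange diamond of Jag1 sits at −0.024 and that of Hes5 at −0.43, on the other side of 0 from their estimates.

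Hes1 and Hey1 lay on opposite sides of 0, and their ratio puts both in 1 value per library. The Hey1 to Hes1 ratio of normalized counts was 1.04, 1.07, 1.18 and 1.10 in mutants 1 to 4, against 0.489, 0.789, 0.596 and 0.617 in controls 1 to 4. The Heyl to Hes1 ratio was 1.60, 1.86, 2.07 and 1.83 in mutants 1 to 4, against 0.959, 1.33, 1.16 and 1.11 in controls 1 to 4. Both ratios were higher in every mutant than in every control. That had to follow, because Hes1 was lower and Hey1 and Heyl were higher in every mutant than in every control. The Hes5 to Hes1 ratio did not separate the groups, at 0.0826 to 0.23 in mutants and 0.0230 to 0.223 in controls. These ratios are unaffected by library scaling and were chosen after the gene values were seen, so they are given with no test.

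**Figure D3:**
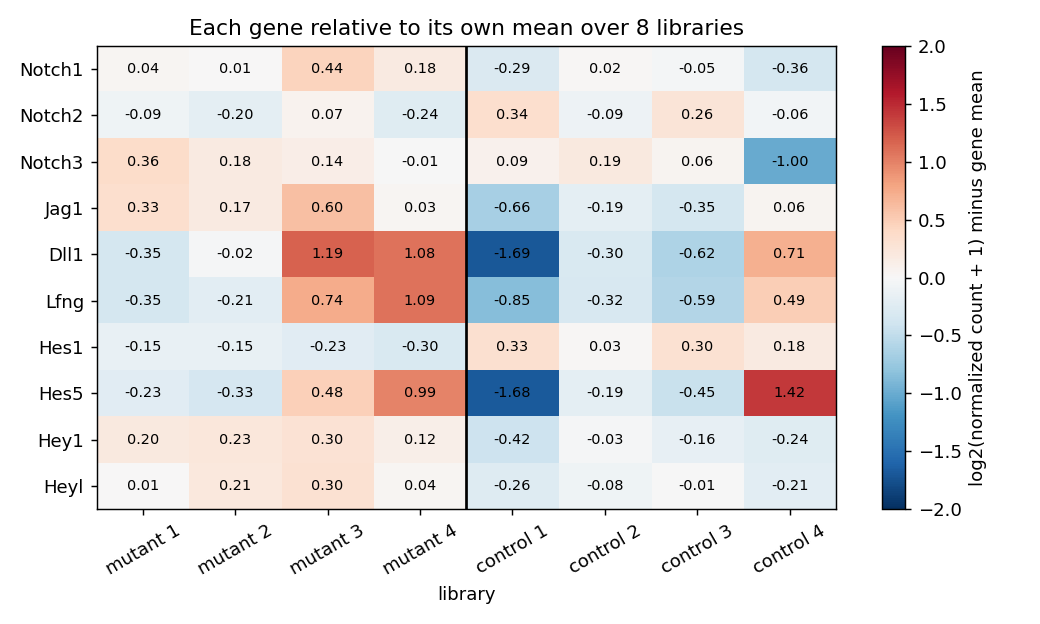
Each gene's log2(normalized count + 1) minus its own mean over the 8 libraries (rows, genes; columns, mutants 1 to 4 left of the line and controls 1 to 4 right of it; red above the gene's mean, blue below). Dll1, Lfng and Hes5 are red in mutant 3, mutant 4 and control 4 and blue in control 1, where Dll1 stands at −1.69 and Hes5 at −1.68, whereas Hes1 is blue in all 4 mutants.

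The spread between embryos of 1 genotype sorted the genes apart from any genotype difference. The within-group SD on the log2 scale was 0.11 for Hes1, 0.13 for Hey1 and 0.13 for Heyl, below the median of 0.22 over all genes tested. It was 0.65 for Lfng, 0.89 for Dll1 and 1.00 for Hes5. For each of these 3 genes the 3 highest libraries were mutant 3, mutant 4 and control 4, a combination found in 9.86% of all genes tested. The same libraries were highest for Nrarp, which encodes a small protein that limits Notch signalling, at 1399, 1299, 2258 and 2625 normalized counts in mutants 1 to 4, against 585, 1357, 949 and 1804 in controls 1 to 4. Among the other pathway lists, these libraries were highest for 2 of 10 cleavage genes (Aph1a and Aph1c), 1 of 13 corepressors (Fhl1) and 1 of 11 inhibitors (Nrarp). The remaining pathway lists held no such gene, and the share over all genes tested was 9.86%. Among markers, the same libraries were highest for 3 of 5 proximal tubule genes (Hnf4a, Lrp2 and Cubn) and 3 of 5 loop and distal genes (Slc12a1, Irx1 and Irx3). It was also so for 3 of 8 early nephron markers (Osr2, Emx2 and Pou3f3). Outside these lists it held for 2 of 6 ureteric markers (Aqp2 and Krt8) and 2 of 6 mural and smooth muscle markers (Acta2 and Mcam). The endothelial, arterial and macrophage lists held 1 such gene each (Emcn, Sox17 and C1qa), and the nephron progenitor list 0 of 7. Hnf4a, which encodes a proximal tubule regulator, had 197, 282, 2262 and 4877 normalized counts in mutants 1 to 4, against 1.84, 193, 96.9 and 1547 in controls 1 to 4. The part of these marker genes in the Dll1, Lfng and Hes5 values was not tested.

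The other genes of the pathway, listed by role, comprised 64 genes, of which 60 were tested. None passed at an adjusted limma p below 0.05, against 0.301% of all genes, and limma voom also called 0. At an unadjusted limma p below 0.05 there were 4 higher and 3 lower, against 12.0% of all genes (6.33% higher and 5.72% lower). Mutants lay above all controls for 1 of the 60 (Epn1), against 4.17% of all genes. They lay below all controls for 4 (Adam10, Hes6, Rfng and Ctbp1), against 4.43% of all genes. Fold changes were positive for 30 and negative for 30, with a median of 0.0021. Adam10, the protease that makes the first cut in ligand-bound Notch, had 3780.4, 3956, 4237 and 3839 normalized counts in mutants 1 to 4, against 6254, 5235, 6429.7 and 4940.1 in controls 1 to 4. Every mutant was below every control, and the log2 fold change was −0.52 (adjusted p = 0.0748 by limma, SE 0.099). Adam10 passed without control 4 (limma adjusted p = 0.0192), as did 1.13% of all genes. In the authors' deposited table Adam10 has a log2 fold change of −0.59 (adjusted p = 1.4e-07, SE 0.095).

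Hes6, a relative of Hes1 that is known to oppose it, also had all mutants below all controls. Its values were 1073, 1221, 1015 and 1019.7 normalized counts in mutants 1 to 4, against 1439.7, 1396, 1449 and 1450.2 in controls 1 to 4 (log2 fold change −0.41, SE 0.085, limma adjusted p = 0.0951). Hey2, which acts in arteries and the heart, had a log2 fold change of 0.20 (adjusted p = 0.591 by limma, SE 0.13). Hes7 was at 15.5 to 50.1 normalized counts in mutants and 19.3 to 28.2 in controls, and Hes2 was at 0 in every library but mutant 2.

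Of the remaining receptor and ligands, the endothelial receptor Notch4 had a log2 fold change of 0.26 (adjusted p = 0.448 by limma, SE 0.13) and the endothelial ligand Dll4 one of 0.35 (adjusted p = 0.324 by limma, SE 0.13). The groups overlapped for both. Dll3 was at most 15.5 normalized counts in mutants and 20.3 in controls. The nuclear list held 8 genes, 6 of them with negative fold changes between −0.15 and −0.037. Rbpj, the DNA-binding partner of cleaved Notch, was at −0.15 (adjusted p = 0.698 by limma, SE 0.14), and Kat2a, an acetyltransferase, at −0.13 (SE 0.11). Among 10 genes of receptor cleavage, Aph1b, a gamma-secretase subunit, was at 0.38 (adjusted p = 0.326 by limma, SE 0.14). Mib2, a ubiquitin ligase for ligands, was at 0.25 (SE 0.11) and its relative Mib1 at −0.41 (SE 0.20). Rfng, another fringe enzyme, was at −0.15 (SE 0.085), and Pofut1, which adds fucose to Notch receptors, at 0.11 (SE 0.079). The ubiquitin ligase Dtx4 was at 0.36 (SE 0.13), Nrarp at 0.75 (SE 0.34), and the corepressors Tle2 and Tle3 at −0.54 (SE 0.24) and −0.15 (SE 0.096); none of these passed. With no depth scaling Hes6, Rbpj, Kat2a, Mib1, Rfng and Tle3 had positive values, from 0.057 to 0.34, all below the median of all genes.

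**Figure D4:**
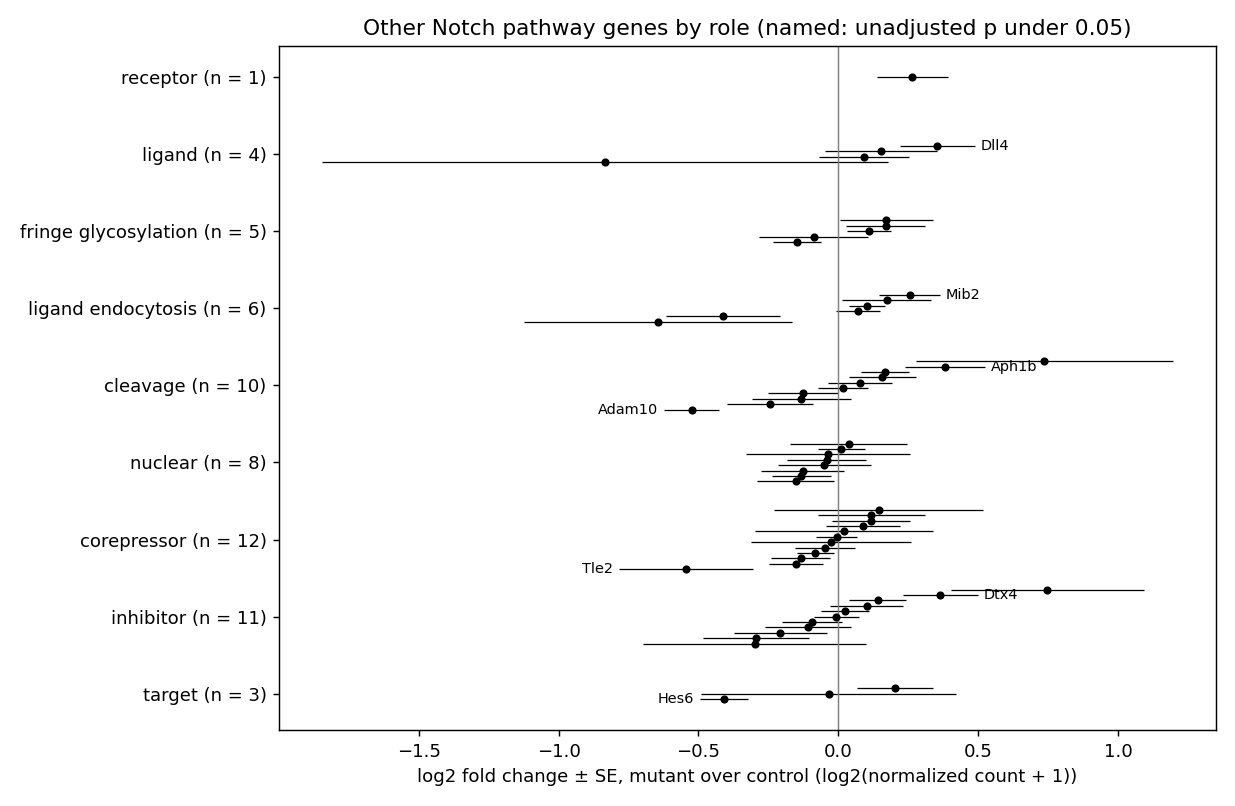
Log2 fold change, mutant over control, with its SE (horizontal axis) for the 60 other pathway genes tested, 1 row of points for each role; the 7 genes with an unadjusted limma p below 0.05 are named. Points spread to both sides of 0 in most roles, and Adam10 and Hes6 stand to the left at −0.52 and −0.41 with short bars.

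Markers of the cell types that use Notch are given as summed normalized counts, and their part in the member values was not tested. The 6 endothelial markers summed to 18438 to 21092 in mutants and 13143 to 17274 in controls, with no overlap, and all 6 fold changes were positive. Tie1 and Tek, both endothelial receptors, had log2 fold changes of 0.55 (SE 0.12) and 0.42 (SE 0.093), with limma adjusted p of 0.104 and 0.106. The 6 mural and smooth muscle markers summed to 10040.4 to 12319.7 in mutants and 8402 to 9728 in controls, with 5 positive and 1 negative. Among them were Cspg4 at 0.45 (adjusted p = 0.31 by limma, SE 0.17) and Mcam at 0.27 (adjusted p = 0.389 by limma, SE 0.12). The negative one was Rgs5, at −0.45 (SE 0.23). The 4 arterial markers summed to 5458 to 6056 in mutants and 4092 to 5603 in controls, and overlapped, with 3 positive and 1 negative. Efnb2 was at 0.25 (adjusted p = 0.317 by limma, SE 0.095) and Sox17 at 0.42 (adjusted p = 0.394 by limma, SE 0.18). Gja4 was at 0.15 (SE 0.19) and Gja5 at −0.00036 (SE 0.25). The 8 early nephron markers summed to 40856 to 47277 in mutants and 27466 to 38145 in controls, without overlap, with 7 positive. Pax8 was at 0.64 (adjusted p = 0.0688 by limma, SE 0.12) and Wnt4 at 0.31 (SE 0.088). The cyclin Ccnd1 made up most of that sum, with means of 24400 in mutants and 19543 in controls. Taken singly, 4 of the 8 had every mutant above every control, against 4.17% of all genes. Fgf8 was the negative one, at −0.11 (SE 0.21). The 7 nephron progenitor markers summed to 3145 to 9273 in mutants and 15692 to 30880.0 in controls and were all lower; Osr1 (−1.69, limma adjusted p = 0.0152) and Crym (−2.87, limma adjusted p = 0.0185) fell, though Osr1 missed the threshold in 7 and Crym in 6 of the 23 alternative fits. Leaving out 1 library, Osr1 missed the threshold without mutant 1, mutant 3 or control 3 (limma adjusted p up to 0.103), and Crym without mutant 3, mutant 4, control 1 or control 3 (up to 0.112). Among the other fits, Osr1 missed it with no depth scaling (limma adjusted p = 0.474), in the m755 and c755 libraries alone (0.115), with total scaling (0.0846) and with no variance trend (0.051), and Crym with total scaling (0.0533) and with no variance trend (0.0691).

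The podocyte gene Plce1 had a log2 fold change of 0.59 (SE 0.16). The 5 proximal tubule markers summed to 638 to 9391 in mutants and 232 to 3047 in controls, with Cubn at 1.68 (SE 0.84) and Lrp2 at 1.27 (SE 0.66). The 5 loop and distal markers summed to 1056 to 3054 in mutants and 533 to 2474 in controls, with Irx1 at 0.92 (SE 1.45) and Irx3 at 0.70 (SE 0.27). Both had higher mutant means, whereas the other markers of that list had lower ones. Slc12a1 had means of 61.2 in mutants and 86.6 in controls, Umod 3.20 and 16.6, and Slc12a3 4.13 and 8.96. The log2 fold change of Slc12a1 was 0.50 (SE 2.15), and Umod and Slc12a3 did not enter the test. The 6 ureteric markers summed to 19889 to 23053 in mutants and 19859 to 27581 in controls, with 2 positive and 4 negative fold changes, among them Ret at −0.77 (SE 0.24), Wnt11 at −0.84 (SE 0.15) and, named after its value was seen, Krt8 at 0.40. The 5 macrophage markers summed to 2683 to 2896 in mutants and 1579.9 to 2300.4 in controls, without overlap and with all 5 fold changes positive, among them C1qc at 0.71 (SE 0.16) and Laptm5 at 0.50 (SE 0.12). The neuronal genes Stmn2 and Elavl4 were at −0.70 (SE 0.33) and −0.56 (SE 0.32). Of the tubule markers, Slc34a1, Slc12a1, Umod and Slc12a3 were at 0 in at least 1 library.

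Patterns over the 8 libraries were compared as the root mean square difference between centred log2 values, between each gene and the 137 others of all lists. Closest to Hes1 were Hes6 (0.092), Adam10 (0.11) and Notch2 (0.15). Closest to Hey1 were the endothelial receptor Tek (0.082), the cyclin Ccnd1 (0.10) and Tie1 (0.10). Closest to Jag1 were C1qc (0.13), the early nephron factor Lhx1 (0.16) and Pax8 (0.17). These genes share libraries and scaling, and the values are a description.

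Exons of Notch1, Notch3, Dll1 and Hes5 overlap annotated genes on the opposite strand and those of Notch2 another annotated gene on the same strand in GENCODE M21. No source used here states whether the libraries kept strand, so the split of reads between these 5 genes and those partners is uncertain.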

How the data were processed

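Polyadenylated RNA of 8 embryonic kidney pairs was sequenced, 4 mutant and 4 control. The submitters' processing notes name fastp 0.23.2, kallisto 0.46.0, DESeq2 1.40.2 and the build mm10. The deposited expression table is called normalized, but by its values it holds log2(estimated count + 1) with no depth correction, so the log2 values deposited by the authors were turned back into estimated counts. The authors' deposited comparison gives a mean normalized signal, a log2 fold change, a test score and p-values for 644 genes. All of them have an adjusted p of at most 0.0498 there. Estimated counts were divided by median-of-ratios size factors. Genes reaching 10 normalized counts in 4 or more libraries entered the test, made on log2(normalized count + 1), a scale that understates changes of low genes, with limma 3.58.1 (R 4.3.3, variance trend), adjusted by Benjamini-Hochberg over 14974 genes. The planned test assumed depth-corrected values; only the scaling was added. No term for litter or sex was fitted, and where nothing says otherwise the p-values measure the spread between samples.

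Members and gene lists were chosen with earlier results of these data known. Named besides the members were other pathway genes past the threshold, the 2 smallest unadjusted p in each role or marker list, and 6 reference genes. Genes named for ratios, for groups that did not overlap, for the order of their libraries or for being at 0 were chosen after their values were seen. So were genes named to complete a marker list or for their part in a sum. Some podocyte and neuronal marker results are not reported here. Gene positions are from GENCODE M21 on GRCm38 and promoters from RefSeq. The procedure was tested on simulated data. Alternatives changed the filter, the pseudocount, the scaling, the variance model, blocks and the libraries used. Plots used Python 3.11.15 and matplotlib 3.10.9.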

Additional observations from a re-analysis of the deposited data

Results flagged for a closer look

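In 7 of 106 groups of 4 libraries, 1 library stood far from the other 3 by Dixon's criterion; chance flags about 1 in 20 groups. Control 4 accounted for 5 of them. In control 4, Notch3 was at 2947 normalized counts, against 6142 to 6762 in the other controls. In control 4, Mib1 was at 2779 normalized counts, against 1361 to 1542 in the other controls. Irx1 was at 794.3 normalized counts in control 4, against 12.9 to 128.7 in the others. Hnf4a was at 1547 normalized counts there, against 1.84 to 193.5. Etv4 was at 2311 normalized counts there, against 2803 to 2816. Among mutants, Hey2 was at 242.6 normalized counts in mutant 4, against 256.9 to 259.4 in the others. C1qc was at 445 normalized counts in mutant 3, against 369.5 to 378.7 in the others.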

How the results depend on the processing

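Over 23 alternative fits the 10 members gave 230 log2 fold changes, of which 223 kept their direction and their side of the threshold, 4 newly passed and 3 changed sign. With library weights 3 members passed (Hes1, Jag1 and Hey1) and 2 other pathway genes (Adam10 and Hes6), where 748 genes passed in all. Leaving out m816 and c816, 1 member (Jag1) and 1 other pathway gene (Adam10) passed, where 186 genes (1.27%) passed in all, against 0.301% in the main fit. With no depth scaling the median of all genes was 0.48 and the medians of receptors, ligands and Lfng and of the targets were 0.92 and 0.82; total scaling moved the median of all genes to 0.14. With no depth scaling the values of Notch2 (0.24), Hes1 (0.055), Rfng (0.32), Mib1 (0.057), Kat2a (0.34), Rbpj (0.32), Tle3 (0.32) and Hes6 (0.060) were positive, all below that median of all genes. Leaving out 1 library at a time, 0 to 0 members and 0 to 1 other pathway genes passed (Adam10 without control 4), and the medians ran from 0.385 to 0.527 for receptors, ligands and Lfng and from 0.104 to 0.381 for targets. In the same fits Hes5 ran from −0.034 (without control 1) to 1.00 (without control 4) and Irx1 from −0.022 (without mutant 4) to 1.96 (without control 4), and Irx1 was at −0.30 in the m755 and c755 libraries alone. The cause of these changes was not tested. Over all genes, 45 passed, 133 with the replicate block, 2 without control 3 and 167 without control 4. Libraries with the same replicate number deviated together with r of 0.27, 0.098, −0.13 and 0.35, so those numbers were not taken as pairs. With the replicate block 0 members and 1 other pathway gene (Adam10) passed. Mutant and control libraries sharing the number in their name had r of 0.27, 0.068, 0.24, 0.098 and 0.35, and all other pairs −0.31 to 0.18. With a block for that number 0 members passed, and 7 had an unadjusted limma p below 0.05, against 12.3% of all genes. Mutant 3 and control 3 each had their own number, so in that fit they add nothing to the genotype difference. Depth limits Hes5 most, with as few as 57 estimated counts.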
